A study of Mus musculus with 9 samples.

Results

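The mitotic genes are 35 genes whose products start or carry out cell division, taken from the deposited count table by gene symbol. All 35 were found, among 57180 rows in the table, and all 35 passed the filter on low counts. RNA-seq was run on total RNA from dorsal skin of nude mice on the BALB/c background, which lack a thymus and have defective hair. The 3 groups had 3 libraries each. UVB-hCOL3A1 libraries came from UVB-irradiated skin treated with hCOL3A1, which the series title ties to type III collagen delivered as mRNA. UVB-Saline libraries came from UVB-irradiated skin given saline, and NoUVB libraries from skin without UVB, for which the labels name no saline. UVB was given on alternate days for 8 weeks, starting at 60 mJ/cm2 (1 minimal erythemal dose, MED) and ending at 240 mJ/cm2 (4 MED), and tissue was taken on a day 28 whose starting point is not stated. All libraries carry batch 1, so the labels record no batch difference between the groups. Differences in handling that the labels do not record cannot be seen. The sources used here give no dose, carrier or route for hCOL3A1 and do not say whether each library is a separate animal, so p-values measure only the spread between these libraries, which may be technical.

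Mitosis begins when cyclin B bound to the kinase Cdk1 becomes active, after which chromosomes condense, attach through kinetochores to spindle microtubules, and separate once the spindle checkpoint releases the anaphase-promoting complex. The transcripts of these proteins are made mainly in late S and G2 phase, so their level in a tissue rises with the share of cells that are about to divide. In skin the dividing cells are mostly basal keratinocytes of the epidermis, matrix cells of growing hair follicles and the edge cells of sebaceous glands. Many mitotic genes are known to be repressed in resting cells and switched on in G2 by protein complexes that bind a short promoter element, the cell cycle genes homology region (CHR, letters TTTGAA, or TTCGAA in a variant), together with CCAAT boxes, which bind the factor NF-Y.

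RefSeq promoters of GRCm38.p6, 250 bases before to 50 after the annotated start, were matched for 30 of the 35 members and gave 32 sequences, since a gene can have more than 1 start. No promoter was matched for Aurkb, Ccna2, Foxm1, Kif20a and Tpx2. The 6 below belong to the 5 members with the smallest p in UVB-Saline over NoUVB, Hmmr, Anln, Cenpa, Aurka and Top2a, and to Ttk, which had the smallest p between the 2 irradiated groups. They run 5′ to 3′ on the gene's own strand, and capitals mark CHR letters (TTTGAA or TTCGAA, read as TTCAAA or TTCGAA on the other strand) and CCAAT boxes (read as ATTGG on the other strand). Their positions are chr11:40733388-40733687 (minus strand) for Hmmr, chr9:22389157-22389456 (minus strand) for Anln, chr5:30666636-30666935 (plus strand) for Cenpa, chr2:172370521-172370820 (minus strand) for Aurka, chr11:99024140-99024439 (minus strand) for Top2a and chr9:83834439-83834738 (plus strand) for Ttk.
Hmmr: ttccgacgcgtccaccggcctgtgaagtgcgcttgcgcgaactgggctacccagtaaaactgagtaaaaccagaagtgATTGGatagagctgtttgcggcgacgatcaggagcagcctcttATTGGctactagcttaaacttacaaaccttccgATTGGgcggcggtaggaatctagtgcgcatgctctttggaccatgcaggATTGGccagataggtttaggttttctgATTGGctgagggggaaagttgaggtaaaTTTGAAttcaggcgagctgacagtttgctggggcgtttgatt
Anln: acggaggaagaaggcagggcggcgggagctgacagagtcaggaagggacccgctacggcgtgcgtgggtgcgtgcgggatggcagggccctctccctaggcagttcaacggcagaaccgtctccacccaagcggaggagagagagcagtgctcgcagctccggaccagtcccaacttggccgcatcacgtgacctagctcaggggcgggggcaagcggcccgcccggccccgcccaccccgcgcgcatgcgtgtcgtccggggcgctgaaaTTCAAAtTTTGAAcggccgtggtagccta
Cenpa: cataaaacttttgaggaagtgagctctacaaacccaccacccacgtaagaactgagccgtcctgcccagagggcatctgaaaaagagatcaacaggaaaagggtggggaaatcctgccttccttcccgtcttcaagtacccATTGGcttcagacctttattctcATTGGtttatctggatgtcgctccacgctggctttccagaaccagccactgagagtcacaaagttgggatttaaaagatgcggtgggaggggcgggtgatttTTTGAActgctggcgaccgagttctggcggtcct
Aurka: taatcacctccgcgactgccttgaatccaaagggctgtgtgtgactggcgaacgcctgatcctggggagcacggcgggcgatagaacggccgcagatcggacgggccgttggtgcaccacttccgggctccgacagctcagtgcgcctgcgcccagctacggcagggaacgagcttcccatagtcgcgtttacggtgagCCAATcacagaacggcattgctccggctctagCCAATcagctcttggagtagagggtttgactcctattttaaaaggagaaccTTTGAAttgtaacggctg
Top2a: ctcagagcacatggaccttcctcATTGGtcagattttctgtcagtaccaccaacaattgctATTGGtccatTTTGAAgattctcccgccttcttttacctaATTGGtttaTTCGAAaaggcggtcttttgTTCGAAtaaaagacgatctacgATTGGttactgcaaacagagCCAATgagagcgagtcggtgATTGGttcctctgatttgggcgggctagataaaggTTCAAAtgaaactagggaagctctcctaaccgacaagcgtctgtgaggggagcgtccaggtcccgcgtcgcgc
Ttk: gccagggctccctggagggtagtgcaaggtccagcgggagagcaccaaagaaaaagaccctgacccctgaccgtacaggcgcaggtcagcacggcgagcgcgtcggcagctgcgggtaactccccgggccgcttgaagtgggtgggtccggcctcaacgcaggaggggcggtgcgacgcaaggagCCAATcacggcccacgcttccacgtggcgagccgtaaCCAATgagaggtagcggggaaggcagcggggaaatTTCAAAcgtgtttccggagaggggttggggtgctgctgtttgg

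TTTGAA stood on either strand in 26 of the 32 member promoters (81.3%) and in 17.9% of all 32851 RefSeq mouse promoters of the same length. TTCGAA stood in 3 of the 32 (9.38%), against 1.56% of all promoters. CCAAT stood in 25 of the 32 (78.1%), against 37.4% of all promoters, and both kinds of element were present in 23 of the 32 (71.9%), against 7.52% of all promoters. In 1 member promoter, that of Cdca8, a CHR match and a CCAAT box on the other strand shared 1 base, as such matches shared bases in 0.146% of all promoters. With 1 promoter per gene, a CHR match began within 50 bases of the start in 23 of 30 members, as it did in 5.31% of all promoters. The promoters of Birc5, Nuf2 and Nusap1 held neither element in this window. These letter matches describe the genes and measure no binding.

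**Figure D1:**
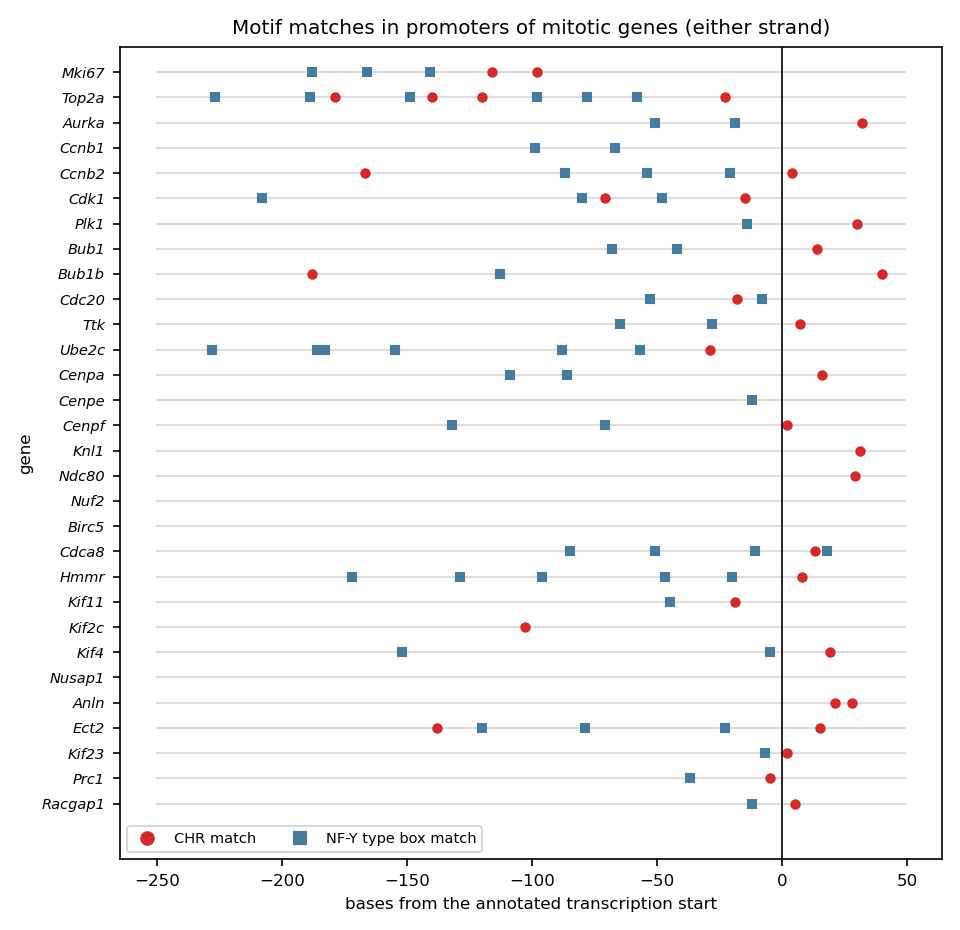
Positions of promoter elements in 30 mitotic genes. The x axis is the distance in bases from the annotated transcription start (vertical line); red circles are CHR matches (TTTGAA or TTCGAA) and blue squares are NF-Y type boxes (CCAAT), on either strand, with 1 promoter per gene. In 23 of the 30 genes a CHR match lies within 50 bases of the start, and Birc5, Nuf2 and Nusap1 have no match.

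Library totals were 7640172 to 12927411 estimated counts, of which the ribosomal RNA row Rn18s-rs5 took 7.71% (NoUVB 2) to 55.3% (NoUVB 1), leaving 4274106 to 7402229 counts in other rows. Single members had 19 to 4718 counts per library. Levels are given in CPM, counts relative to library size after TMM scaling, in the order of libraries 1 to 3 of each group, and means are over 3 libraries with their SD. Set on the mean of the 3 NoUVB libraries, the mean log2 CPM of the 35 members was 0.27, 0.18 and 0.00 in UVB-hCOL3A1 libraries 1 to 3, 0.65, 0.09 and 0.55 in UVB-Saline libraries 1 to 3 and 0.07, -0.05 and -0.03 in NoUVB libraries 1 to 3. UVB-Saline 2 therefore stood apart from UVB-Saline 1 and 3: it was the lowest of its group for 34 of the 35 members. UVB-Saline 1 was the highest of all 9 libraries for 20 members and UVB-Saline 3 for 13. Within UVB-hCOL3A1, library 3 was the lowest for 24 members. The median coefficient of variation of the members across replicates was 12.9% in UVB-hCOL3A1, 23.2% in UVB-Saline and 7.73% in NoUVB, beside 14% in UVB-hCOL3A1, 17.3% in UVB-Saline and 14% in NoUVB over all genes tested. Spread between replicates was thus above that of the typical gene for mitotic transcripts in UVB-Saline and below it in NoUVB.

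**Figure D2:**
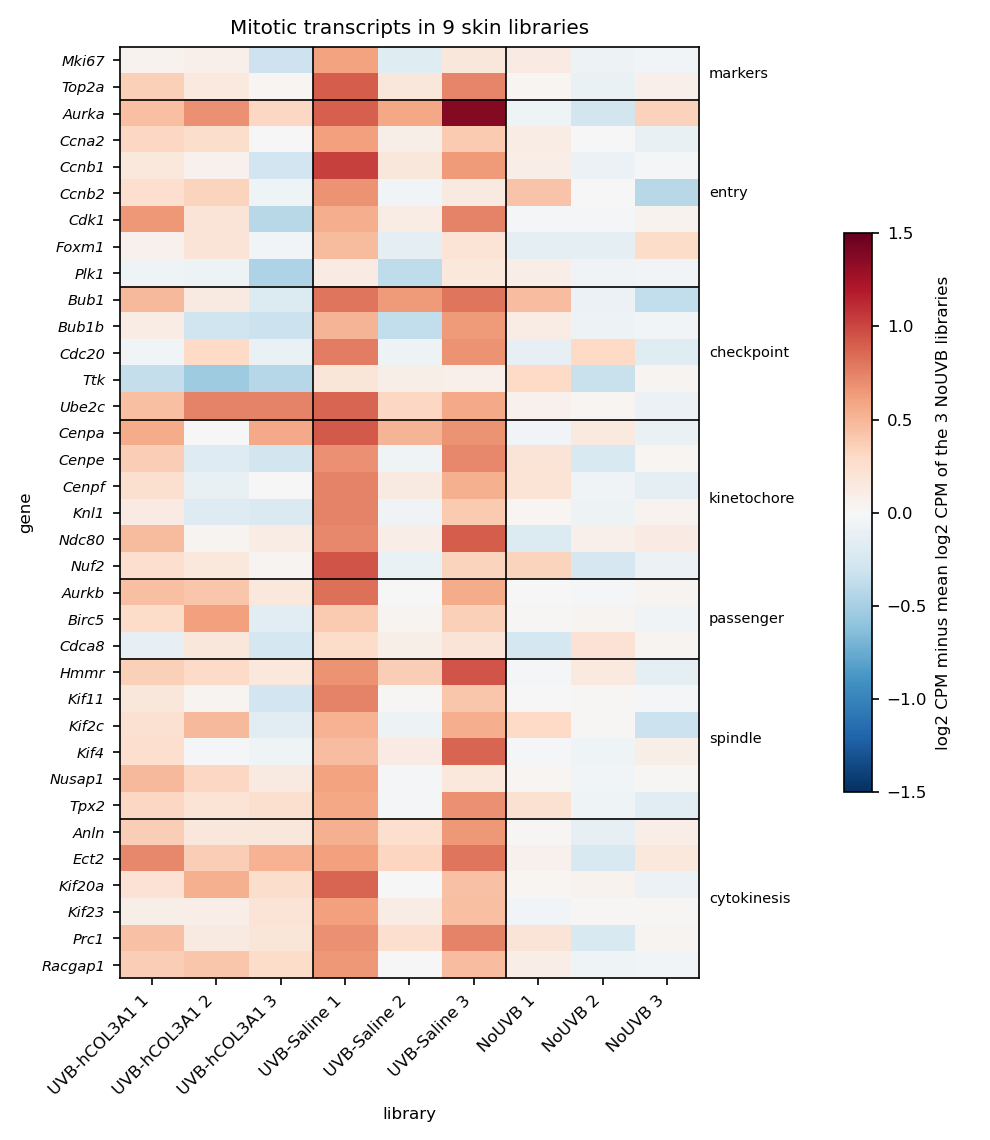
Log2 CPM of the 35 mitotic genes in each of 9 libraries, as the difference from the mean of the 3 NoUVB libraries (red higher, blue lower). Rows are grouped by role and columns by group. UVB-Saline 1 and 3 are red across nearly all rows, while UVB-Saline 2 lies near 0, with a mean difference of 0.09.

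UVB-Saline and NoUVB skin differ by irradiation and by the saline that only the irradiated group is labelled with. The mitotic genes had higher mean levels in UVB-Saline than in NoUVB skin almost throughout: 34 of 35 had a positive log2 fold change, with a median of 0.48, beside 51.8% of all 17168 genes tested and a median of 0.01. No member passed edgeR's quasi-likelihood test at an adjusted p of 0.05 (smallest adjusted p = 0.319), nor under DESeq2 or limma voom; 3 of all genes tested passed (0.0175%), all of them lower. At an unadjusted p under 0.05 there were 19 members, all higher, against 4.93% of all genes in that direction and 0 members lower (background 4.6%). In 15 members all UVB-Saline libraries lay above all NoUVB libraries, against 7.18% of all genes, and in 0 members below (background 6.61%). Some of the 15 had very small margins: UVB-Saline 2 and NoUVB 2 had 6.08 and 6.07 CPM of Birc5, and 19.32 and 19.29 CPM of Kif11. The members moved together between libraries, UVB-Saline 2 being the lowest of its group for 34 of them. Counts of members, here and in the other comparisons, are therefore not counts of independent results.

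These counts turned on single libraries. Without UVB-Saline 2 the groups did not overlap for 31 members (background 11.7%) and 27 were at an unadjusted p under 0.05 (background 4.2%). Leaving out a library can only keep or raise a count of members that do not overlap. UVB-Saline 2 was the lowest of its group for 34 members, so neither the rise to 31 nor the rise to 27 adds support. The count at an unadjusted p under 0.05 was 10 without UVB-Saline 1 (background 7.31%), and 12 without UVB-Saline 3, NoUVB 2 or NoUVB 3 (backgrounds 3.55%, 2.95% and 4.52%). The median log2 fold change was 0.31 without UVB-Saline 1 and 0.64 without UVB-Saline 2. In whole skin, more dividing cells and more mitotic RNA per cell cannot be told apart.

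Mki67 and Top2a mark chromosomes of cycling cells. Mki67, a coat protein of mitotic chromosomes and the usual marker of proliferation, had 332, 336 and 257 CPM in UVB-hCOL3A1, 484, 281 and 359.9 CPM in UVB-Saline and 346, 302 and 310.1 CPM in NoUVB libraries. UVB-Saline 1 was the highest of all 9 libraries, UVB-Saline 2 lay below all NoUVB libraries, and the groups overlapped. Its log2 fold change in UVB-Saline over NoUVB was 0.23 ± 0.18 (SE; adjusted p = 0.741). Top2a, the topoisomerase that untangles sister chromatids, had 65.4, 56.6 and 52.1 CPM in UVB-hCOL3A1, 95.9, 57.5 and 84.9 CPM in UVB-Saline and 52.1, 47.7 and 53.8 CPM in NoUVB libraries. All 3 UVB-Saline libraries lay above all NoUVB libraries, UVB-Saline 2 by a few CPM. The log2 fold change of Top2a was 0.63 ± 0.17 (1.55-fold; adjusted p = 0.322).

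**Figure D3:**
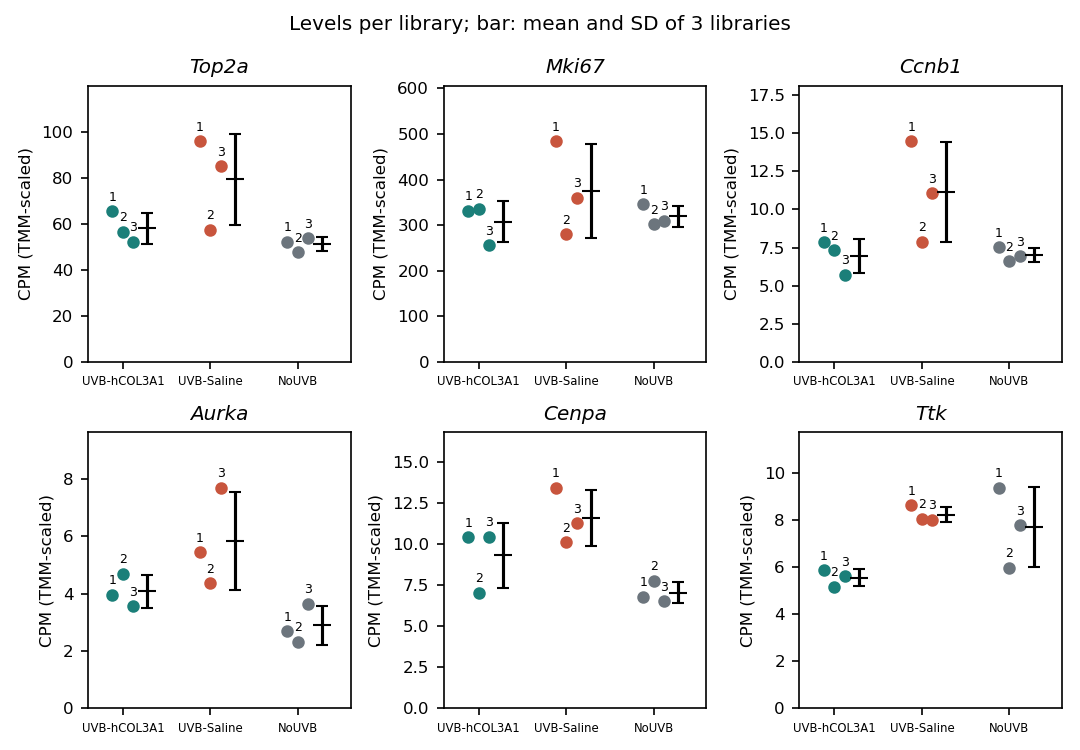
CPM of 6 mitotic genes in each library, with the replicate number above each point and the mean and SD of 3 libraries beside them. Top2a, Ccnb1, Aurka and Cenpa have UVB-Saline libraries above all NoUVB libraries, Mki67 overlaps between all groups, and Ttk has its 3 UVB-hCOL3A1 libraries below the rest.

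Of the 7 genes of mitotic entry, 6 had a positive log2 fold change in UVB-Saline over NoUVB (median 0.38). In 3, Aurka, Ccnb1 and Cdk1, the groups did not overlap (background 7.18%). The members named by role as not overlapping are part of the 15 counted above. Aurka, the centrosome kinase that matures spindle poles and helps to activate Plk1, had 3.96, 4.7 and 3.56 CPM in UVB-hCOL3A1, 5.44, 4.36 and 7.7 CPM in UVB-Saline and 2.7, 2.32 and 3.66 CPM in NoUVB libraries, and UVB-Saline 3 was the highest. Its log2 fold change of 1.00 ± 0.27 (2.00-fold; adjusted p = 0.319) was the largest of the 35 members. Ccnb1, cyclin B1, the main partner of Cdk1, had 7.85, 7.34 and 5.72 CPM in UVB-hCOL3A1, 14.5, 7.89 and 11.1 CPM in UVB-Saline and 7.53, 6.61 and 6.93 CPM in NoUVB libraries. UVB-Saline 1 and 3 stood clear of the other 7 libraries, and UVB-Saline 2 lay just above NoUVB 1. The log2 fold change of Ccnb1 was 0.66 ± 0.22 (adjusted p = 0.402). Cdk1, the kinase that drives entry, had 8.08, 5.83 and 3.78 CPM in UVB-hCOL3A1, 7.49, 5.51 and 8.67 CPM in UVB-Saline and 4.97, 5.0 and 5.29 CPM in NoUVB libraries; its UVB-hCOL3A1 libraries spread more widely than either other group. It stood at a log2 fold change of 0.50 ± 0.27 in UVB-Saline over NoUVB (adjusted p = 0.609). Foxm1, a transcription factor of G2 genes, had 14.4, 15.7 and 13.4 CPM in UVB-hCOL3A1, 19.2, 12.4 and 15.9 CPM in UVB-Saline and 12.5, 12.4 and 16.7 CPM in NoUVB libraries, with no separation between groups and a log2 fold change of 0.18 ± 0.18 (adjusted p = 0.796). Plk1, the Polo kinase that acts from entry to cytokinesis, had 8.69, 8.66 and 6.58 CPM in UVB-hCOL3A1, 9.96, 6.99 and 10.2 CPM in UVB-Saline and 9.8, 8.75 and 8.85 CPM in NoUVB libraries. It was the 1 member with a negative log2 fold change, -0.02 ± 0.19 (adjusted p = 0.986), and its groups overlapped. Cyclin A2 (Ccna2) had a log2 fold change of 0.38 ± 0.15 and cyclin B2 (Ccnb2) one of 0.27 ± 0.26, both with overlapping groups.

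The 5 genes of the spindle checkpoint and anaphase all had positive log2 fold changes in UVB-Saline over NoUVB, with a median of 0.48. In 2 of them, Bub1 and Ube2c, the groups did not overlap (background 7.18%). Cdc20, which activates the anaphase-promoting complex and is the checkpoint's target, had 5.41, 6.87 and 5.18 CPM in UVB-hCOL3A1, 9.65, 5.26 and 9.0 CPM in UVB-Saline and 5.11, 6.88 and 4.91 CPM in NoUVB libraries; UVB-Saline 1 and 3 were the 2 highest and UVB-Saline 2 lay within the NoUVB range. Cdc20 had a log2 fold change of 0.48 ± 0.25 (adjusted p = 0.599). Ube2c, the ubiquitin-conjugating enzyme of that complex, had 8.08, 9.97 and 9.93 CPM in UVB-hCOL3A1, 10.9, 7.32 and 8.78 CPM in UVB-Saline and 6.11, 5.98 and 5.48 CPM in NoUVB libraries. All 6 irradiated libraries lay above all NoUVB libraries. Its log2 fold change in UVB-Saline over NoUVB was 0.62 ± 0.18 (adjusted p = 0.359). Ttk, the Mps1 kinase at the top of the checkpoint, had 5.87, 5.17 and 5.61 CPM in UVB-hCOL3A1, 8.62, 8.06 and 8.02 CPM in UVB-Saline and 9.37, 5.98 and 7.79 CPM in NoUVB libraries. The UVB-Saline libraries were tight and lay inside the NoUVB range, with a log2 fold change of 0.11 ± 0.18 (adjusted p = 0.892). The checkpoint kinase Bub1 averaged 3.56 ± 0.902 CPM in UVB-hCOL3A1, 5.43 ± 0.362 CPM in UVB-Saline and 3.25 ± 1.03 CPM in NoUVB skin (SD), a log2 fold change of 0.76 ± 0.27 in UVB-Saline over NoUVB (adjusted p = 0.421). Its relative Bub1b (BubR1), a subunit of the complex that inhibits Cdc20, stood at 0.32 ± 0.24.

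The counts of Ube2c are uncertain. In the GENCODE M21 annotation 592 of its exon bases are shared with Tnnc2, the fast skeletal muscle troponin C, on the opposite strand, and the sources used here do not say whether counting used strand, so reads of the 2 genes cannot be told apart there. Tnnc2 had 35.1, 38.3 and 51.7 CPM in UVB-hCOL3A1, 11.4, 25.0 and 23.0 CPM in UVB-Saline and 36.9, 14.02 and 16.4 CPM in NoUVB libraries. The part of Tnnc2 reads in the Ube2c values was not tested. More exon bases were shared on the opposite strand by Kif20a (1271, with Cdc23), Prc1 (911, with Rccd1) and Kif4 (832, with Pdzd11). Their counts are uncertain in the same way. Smaller overlaps were annotated on the opposite strand for Ccna2, Cdc20, Cdca8, Nusap1 and Plk1, and on the same strand for Foxm1 and Top2a.

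Kinetochore and centromere genes, 6 in number, all had positive log2 fold changes in UVB-Saline over NoUVB, with a median of 0.49. Cenpa, the histone H3 variant that marks centromeres, had 10.4, 7.06 and 10.5 CPM in UVB-hCOL3A1, 13.4, 10.1 and 11.3 CPM in UVB-Saline and 6.82, 7.77 and 6.54 CPM in NoUVB libraries. It was the 1 gene of the role in which UVB-Saline and NoUVB did not overlap (background 7.18%). Its log2 fold change was 0.72 ± 0.19 (1.64-fold, adjusted p = 0.319). Cenpf, a large kinetochore protein that peaks in G2, had 47.3, 36.8 and 40.2 CPM in UVB-hCOL3A1, 66.9, 43.9 and 58 CPM in UVB-Saline and 45.9, 38.3 and 36.1 CPM in NoUVB libraries; UVB-Saline 1 and 3 were the 2 highest, and UVB-Saline 2 lay below NoUVB 1. Its log2 fold change was 0.49 ± 0.16 (adjusted p = 0.402). Ndc80, which binds microtubules at the outer kinetochore, had 6.02, 4.42 and 4.64 CPM in UVB-hCOL3A1, 7.19, 4.6 and 8.24 CPM in UVB-Saline and 3.69, 4.55 and 4.71 CPM in NoUVB libraries and a log2 fold change of 0.61 ± 0.24 (adjusted p = 0.484). UVB-Saline 2 again fell inside the NoUVB range. Knl1, the scaffold on which Bub1 assembles, had 19.6, 15.7 and 15.4 CPM in UVB-hCOL3A1, 30.3, 17.3 and 23.6 CPM in UVB-Saline and 18.3, 17 and 18.6 CPM in NoUVB libraries and a log2 fold change of 0.40 ± 0.19 (adjusted p = 0.549). The Ndc80 partner Nuf2 stood at 0.46 ± 0.27 and the kinetochore motor Cenpe at 0.48 ± 0.24.

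The chromosomal passenger complex, which corrects faulty spindle attachments and later guides cytokinesis, had a median of 0.27 over its 3 members. Aurkb, its kinase, had 5.34, 5.17 and 4.32 CPM in UVB-hCOL3A1, 6.98, 3.86 and 5.75 CPM in UVB-Saline and 3.83, 3.75 and 3.94 CPM in NoUVB libraries. The NoUVB libraries lay close together, UVB-Saline 1 and 3 stood above them and UVB-Saline 2 within them. The log2 fold change of Aurkb was 0.52 ± 0.23 (adjusted p = 0.524). Survivin (Birc5) stood at 0.27 ± 0.21 (adjusted p = 0.729), with groups that only just did not overlap, and borealin (Cdca8) at 0.16 ± 0.18.

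Among 6 spindle motors and microtubule proteins, all with positive log2 fold changes and a median of 0.43, Hmmr had the smallest p of the 35 members. Hmmr, a hyaluronan receptor that also binds spindle microtubules, had 8.31, 7.9 and 7.23 CPM in UVB-hCOL3A1, 10.4, 8.39 and 12.6 CPM in UVB-Saline and 6.39, 7.14 and 5.87 CPM in NoUVB libraries. All 3 UVB-Saline libraries lay above all other libraries, UVB-Saline 2 only just above UVB-hCOL3A1 1. The log2 fold change was 0.68 ± 0.18 (1.61-fold; adjusted p = 0.319). Kif11, the motor that pushes spindle poles apart, had 21.5, 19.7 and 15.5 CPM in UVB-hCOL3A1, 32.1, 19.3 and 25.5 CPM in UVB-Saline and 19, 19.3 and 18.9 CPM in NoUVB libraries; NoUVB libraries were nearly equal and UVB-Saline 2 lay at their upper edge. Kif11 had a log2 fold change of 0.42 ± 0.18 (adjusted p = 0.508). Tpx2, which activates Aurka on the spindle, had 21.7, 20.1 and 20.6 CPM in UVB-hCOL3A1, 26.2, 17.3 and 28.1 CPM in UVB-Saline and 20.5, 16.7 and 15.5 CPM in NoUVB libraries and a log2 fold change of 0.44 ± 0.18 (adjusted p = 0.49). The chromosome motor Kif4 stood at 0.52 ± 0.19, the microtubule depolymerase Kif2c at 0.35 ± 0.25 and the spindle bundling protein Nusap1 at 0.27 ± 0.18.

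All 6 genes of the central spindle and cytokinesis were higher at an unadjusted p under 0.05 in UVB-Saline over NoUVB (background 4.93%). Their median log2 fold change was 0.49, and in 4 all UVB-Saline libraries lay above all NoUVB libraries (background 7.18%). These genes are among the 19 and 15 members already counted above, not a separate result. Anln (anillin), which organises the contractile ring, had 27.2, 23.6 and 23.6 CPM in UVB-hCOL3A1, 30.6, 25.1 and 33.1 CPM in UVB-Saline and 21.3, 19.3 and 22.5 CPM in NoUVB libraries. Every irradiated library lay above every NoUVB library. Its log2 fold change was 0.49 ± 0.13 (adjusted p = 0.319). Ect2, the exchange factor that activates RhoA at the division plane, had 8.62, 6.68 and 7.45 CPM in UVB-hCOL3A1, 8.01, 6.49 and 9.11 CPM in UVB-Saline and 5.4, 4.38 and 5.77 CPM in NoUVB libraries and a log2 fold change of 0.60 ± 0.19 (adjusted p = 0.393). Here too all 6 irradiated libraries were above NoUVB. Racgap1, which with Kif23 forms the centralspindlin complex that recruits Ect2, had 13.6, 14 and 12.7 CPM in UVB-hCOL3A1, 16.5, 10.5 and 14.5 CPM in UVB-Saline and 11.2, 10.002 and 10.2 CPM in NoUVB libraries; UVB-Saline 2 lay inside the NoUVB range. Racgap1 had a log2 fold change of 0.40 ± 0.17 (adjusted p = 0.492). The microtubule bundler Prc1 stood at 0.57 ± 0.17, Kif23 at 0.41 ± 0.13 and the motor Kif20a at 0.48 ± 0.20. The exon bases shared with other genes, given above, leave the counts of Prc1 and Kif20a uncertain.

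**Figure D4:**
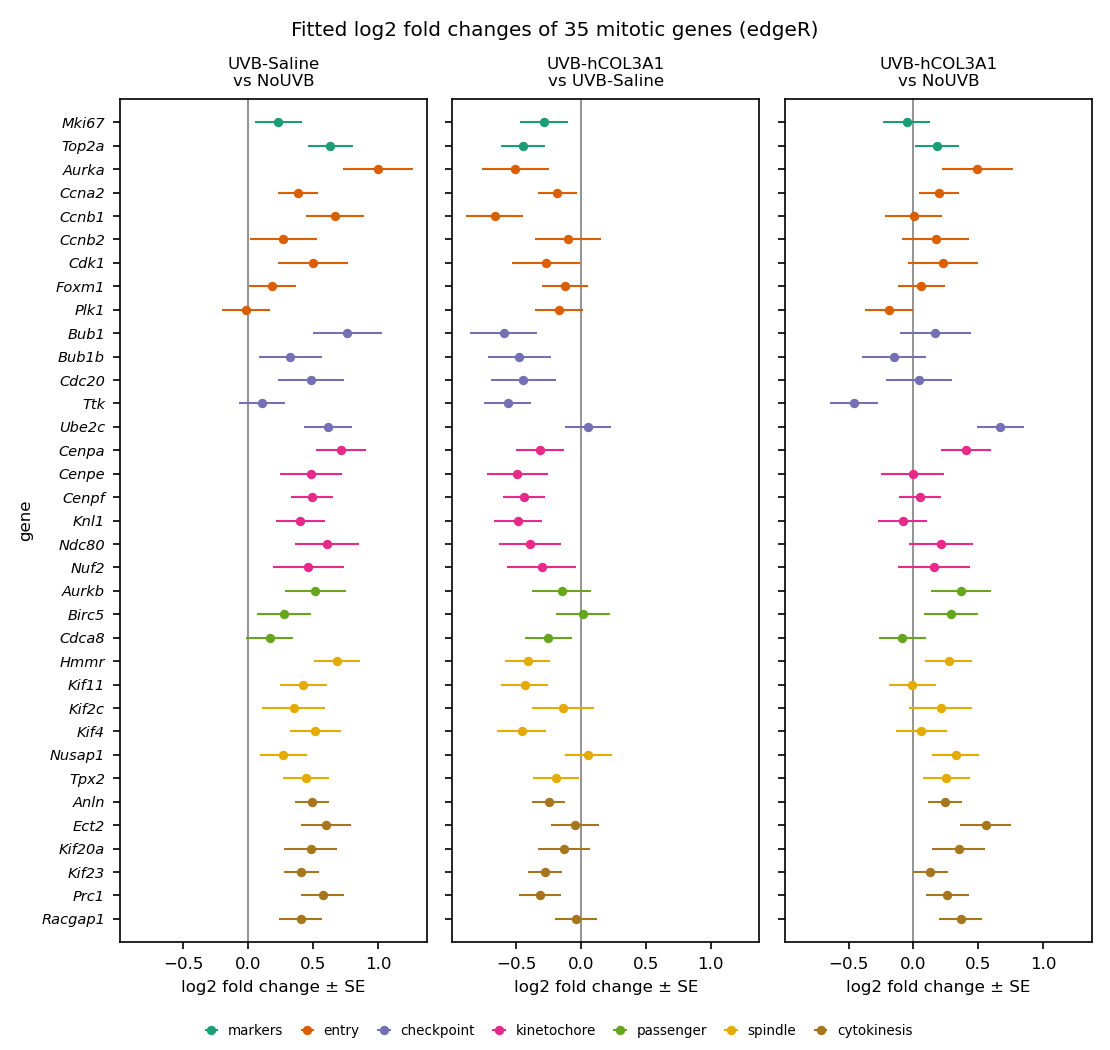
Fitted log2 fold changes of the 35 mitotic genes with their SE in 3 comparisons, from 1 edgeR fit over all 9 libraries; colours mark roles. In UVB-Saline vs NoUVB 34 of 35 lie right of 0 (median 0.48), in UVB-hCOL3A1 vs UVB-Saline 32 of 35 lie left of 0 (median -0.28), and in UVB-hCOL3A1 vs NoUVB the median is 0.18; no gene passed the adjusted threshold, and neighbouring panels share libraries.

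UVB-hCOL3A1 and UVB-Saline skin were both irradiated and differ by hCOL3A1 or saline. No group is labelled with a carrier alone or a control mRNA, so hCOL3A1 and its delivery cannot be told apart. Mitotic transcripts had lower mean levels in UVB-hCOL3A1 skin in 32 of 35 members, with a median log2 fold change of -0.28, beside 46.1% of all genes with a positive log2 fold change and a median of -0.02. No difference passed the test: 0 members passed edgeR's adjusted threshold, DESeq2's or limma voom's (smallest edgeR adjusted p = 0.312), as did 0 of all genes in edgeR (0%). At an unadjusted p under 0.05 there were 9 members lower (background 5.32%) and 0 higher (background 5.97%). All UVB-hCOL3A1 libraries lay below all UVB-Saline libraries in 4 members, Bub1, Ccnb1, Hmmr and Ttk, and 0 lay above (backgrounds 8.33% and 8.95%). The 4 are a share near that of all genes. Some margins were very small: UVB-Saline 2 and UVB-hCOL3A1 1 had 7.89 and 7.85 CPM of Ccnb1, and 8.39 and 8.31 CPM of Hmmr. The UVB-Saline libraries are the same as in the comparison with NoUVB, so values of the 2 comparisons are not independent.

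Ttk had the smallest p of the 35, with a log2 fold change of -0.57 ± 0.18 (0.68-fold; adjusted p = 0.312) in UVB-hCOL3A1 over UVB-Saline. Its levels of 5.55 ± 0.352 CPM in UVB-hCOL3A1 and 8.23 ± 0.337 CPM in UVB-Saline had narrow spreads. Ccnb1 had the largest difference, -0.66 ± 0.22 (0.63-fold; adjusted p = 0.332), with means of 6.97 ± 1.11 CPM in UVB-hCOL3A1 and 11.1 ± 3.29 CPM in UVB-Saline skin. UVB-hCOL3A1 1 lay just below UVB-Saline 2 in that gene. Top2a averaged 58.1 ± 6.75 CPM in UVB-hCOL3A1 and 79.4 ± 19.8 CPM in UVB-Saline skin, a log2 fold change of -0.45 ± 0.17 (adjusted p = 0.377); UVB-Saline 2 lay within the UVB-hCOL3A1 range. Kinetochore genes all had negative values, with a median of -0.42, including Cenpf at -0.44 ± 0.16 (adjusted p = 0.37) and Knl1 at -0.48 ± 0.19 (adjusted p = 0.381). Bub1 stood at -0.59 ± 0.26 (adjusted p = 0.428) and Hmmr at -0.41 ± 0.17 (adjusted p = 0.424). The motors Kif11 and Kif4 stood at -0.43 ± 0.18 and -0.46 ± 0.19, Aurka at -0.51 ± 0.26 and Mki67 at -0.28 ± 0.18. The 3 members with a positive value were Birc5 at 0.02 ± 0.21, Ube2c at 0.05 ± 0.18 and Nusap1 at 0.06 ± 0.18. Cytokinesis genes lay between -0.31 and -0.04, and 0 of the 6 had an unadjusted p under 0.05 (backgrounds 5.32% lower and 5.97% higher).

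These counts too moved when single libraries were left out. Without UVB-Saline 2 the 2 irradiated groups did not overlap for 28 members (background 13.4%), all lower in UVB-hCOL3A1. Without it 18 were lower at an unadjusted p under 0.05 (background 4.02%). Here too a count of members that do not overlap could only stay or rise. UVB-Saline 2 was the lowest of its group in nearly all members, so neither the rise to 28 nor the rise to 18 adds support. The count that did not overlap was 11 without UVB-hCOL3A1 1 (background 14%). The count at an unadjusted p under 0.05 was 1 without UVB-Saline 1 (background 4.8%) or UVB-hCOL3A1 3 (background 3.43%), and 2 without UVB-Saline 3 (background 5.37%) or UVB-hCOL3A1 2 (background 3.37%). Those counts of 1 and 2 are near the shares among all genes.

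UVB-hCOL3A1 and NoUVB skin differ by irradiation and treatment together, and their libraries are shared with the other comparisons. In UVB-hCOL3A1 skin 27 of 35 members had a positive log2 fold change over NoUVB skin, with a median of 0.18, beside 49.2% of all genes and a median of -0.01. By edgeR, DESeq2 and limma voom 0 members passed the adjusted threshold (smallest edgeR adjusted p = 0.202), while 7 of all genes did in edgeR (0.0408%), all higher. In 9 members all UVB-hCOL3A1 libraries lay above all NoUVB libraries (background 10.7%) and in 2, Plk1 and Ttk, below (background 10.7%). The 2 below are a smaller share than among all genes. At an unadjusted p under 0.05 Ube2c and Ect2 were higher (background 6.29%) and Ttk lower (background 5.52%). Neither count is a larger share than among all genes. Ube2c stood at 0.67 ± 0.18 (adjusted p = 0.202); Tnnc2, with which it shares exon bases, had 35.1 to 51.7 CPM in UVB-hCOL3A1 and 14.02 to 36.9 CPM in NoUVB libraries. Ect2 stood at 0.56 ± 0.19 (adjusted p = 0.307) and Ttk at -0.46 ± 0.18 (adjusted p = 0.363). Cytokinesis genes made up 5 of the 9 that did not overlap, among them Racgap1 at 0.36 ± 0.17 (adjusted p = 0.429) and Kif20a, whose counts are uncertain. Cenpa stood at 0.40 ± 0.19 (adjusted p = 0.447), with UVB-hCOL3A1 2 inside the NoUVB range. Entry genes had a median of 0.17 and kinetochore genes one of 0.11. The median over the members was 0.12 without UVB-hCOL3A1 1 and 0.28 without UVB-hCOL3A1 3, and without UVB-hCOL3A1 3 the groups did not overlap for 15 members higher (background 14.7%). Without UVB-hCOL3A1 1, 4 members lay wholly below (background 16.5%), a smaller share than among all genes. Such counts of members that do not overlap can only stay or rise when a library is left out. At an unadjusted p under 0.05, 1 member was higher without NoUVB 2 (background 5.54%) or UVB-hCOL3A1 1 (background 6%), a smaller share than among all genes. The count was 4 without UVB-Saline 1 (background 7.38%) or UVB-Saline 2 (background 6.26%). None was lower without NoUVB 1 (background 3.48%), NoUVB 3 (background 4.46%), UVB-hCOL3A1 2 (background 4.25%) or UVB-hCOL3A1 3 (background 3.86%).

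Cell cycle genes outside the 35 were read from the same fit of the same libraries. The lists were chosen with earlier results of these data known, so they give no separate support. The other mitotic genes had means of 0.55, -0.01 and 0.44 in UVB-Saline libraries 1 to 3 on the same scale as the members, so library 2 was again the low one. Of 55 other mitotic genes tested, 52 had a positive log2 fold change in UVB-Saline over NoUVB (median 0.34), beside 51.8% of all genes, and 12 were higher at an unadjusted p under 0.05, beside 4.93% of all genes. In UVB-hCOL3A1 over UVB-Saline 54 of the 55 were negative (median -0.27), beside 9255 of all 17168 genes, and 7 were lower at an unadjusted p under 0.05 (background 5.32%). In UVB-hCOL3A1 over NoUVB 33 were positive (median 0.06), beside 49.2% of all genes. None of them passed the adjusted threshold in edgeR. Ccnf, cyclin F, had the smallest p in UVB-Saline over NoUVB at 0.64 ± 0.16 (adjusted p = 0.316), and Spc25, a subunit of the Ndc80 complex, stood at 1.06 ± 0.31 (adjusted p = 0.353). Espl1, the protease separase that cuts cohesin, stood at -0.43 ± 0.13 in UVB-hCOL3A1 over UVB-Saline (adjusted p = 0.274).

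DNA replication genes act in S phase, ahead of mitosis. Of 40 tested, 34 were positive in UVB-Saline over NoUVB (median 0.23; all genes 51.8%), 37 were negative in UVB-hCOL3A1 over UVB-Saline (median -0.20; all genes 9255 of 17168) and 24 were positive in UVB-hCOL3A1 over NoUVB (median 0.06; all genes 49.2%). At an unadjusted p under 0.05 the 40 held 1 higher in UVB-Saline over NoUVB, 2 lower in UVB-hCOL3A1 over UVB-Saline and 0 in either direction in UVB-hCOL3A1 over NoUVB, no larger a share than among all genes (4.93%, 5.32%, and 6.29% higher and 5.52% lower). Cdc45, a part of the replicative helicase, stood at 0.71 ± 0.26 in UVB-Saline over NoUVB (adjusted p = 0.434), and the helicase Hells at -0.55 ± 0.20 in UVB-hCOL3A1 over UVB-Saline (adjusted p = 0.357). For 14 G1 cyclins, their kinases and E2F factors the medians were 0.06 in UVB-Saline over NoUVB, -0.13 in UVB-hCOL3A1 over UVB-Saline and -0.07 in UVB-hCOL3A1 over NoUVB. For 12 cell cycle inhibitors and pocket proteins they were 0.14, -0.15 and 0.04 in these 3 comparisons. Cdkn1a (p21), the inhibitor induced by p53, stood at 0.35 ± 0.09 in UVB-Saline over NoUVB (adjusted p = 0.319) and at -0.35 ± 0.09 in UVB-hCOL3A1 over UVB-Saline (adjusted p = 0.232). The imprinted inhibitor Cdkn1c (p57) stood at -1.20 ± 0.29 in UVB-Saline over NoUVB (adjusted p = 0.302); its adjusted p was 0.0418 with DESeq2, 0.0456 without a filter on low counts and 0.0287 with a replicate block. No gene of these 2 lists passed the adjusted threshold in the edgeR fit.

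**Figure D5:**
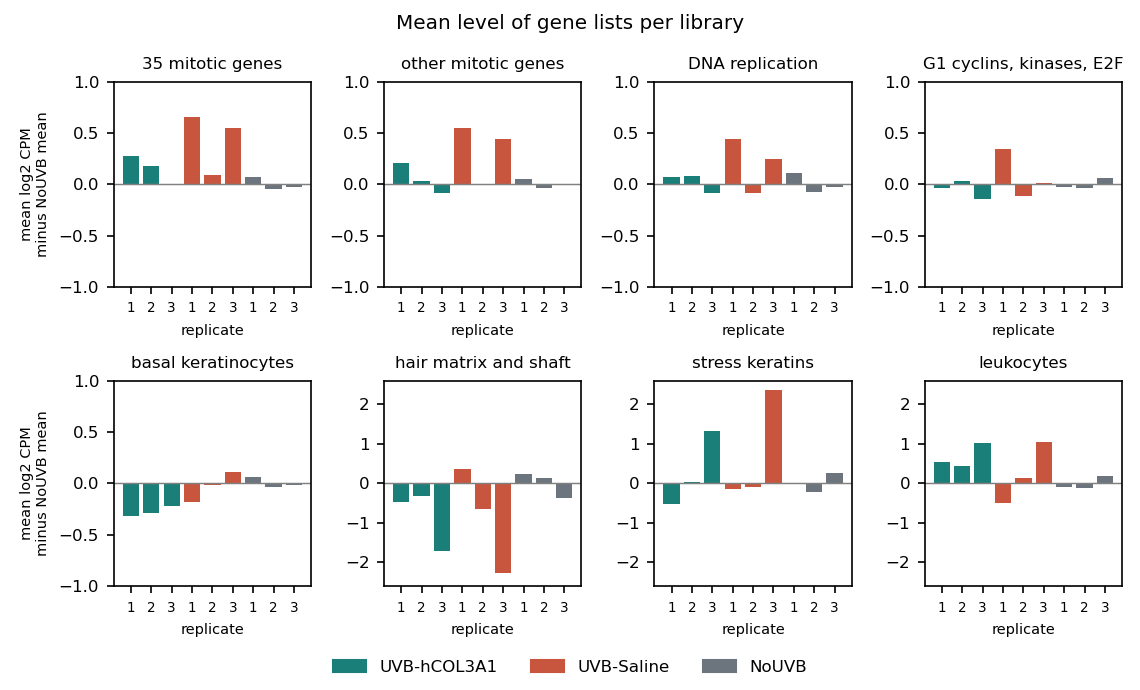
Mean log2 CPM of 8 gene lists in each of 9 libraries, as the difference from the NoUVB mean; bars start at 0, and hair matrix, stress keratins and leukocytes have a wider scale than the other 5 panels. In UVB-Saline, libraries 1 and 3 are the high ones for the 35 mitotic genes (0.65 and 0.55), for the other mitotic genes and for DNA replication. The hair matrix and shaft list, which also holds inner root sheath genes, is high in UVB-Saline 1 and low in UVB-Saline 3.

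Markers of skin cell types varied between libraries of 1 group. The mean log2 CPM of 15 hair matrix and shaft genes tested, set on the NoUVB mean, was -0.46, -0.33 and -1.71 in UVB-hCOL3A1, 0.37, -0.65 and -2.27 in UVB-Saline and 0.23, 0.15 and -0.38 in NoUVB libraries 1 to 3. UVB-Saline 1 and UVB-Saline 3, both high in mitotic transcripts, were thus the highest and the lowest in this list. The list, called hair matrix here, also holds the inner root sheath genes Krt25, Krt27, Krt28, Krt71, Krt73 and Tchh. Its values are therefore not a measure of dividing matrix cells. For 8 stress keratins and related genes of wounded epidermis the values were -0.52, 0.03 and 1.32 in UVB-hCOL3A1, -0.15, -0.08 and 2.37 in UVB-Saline and -0.02, -0.23 and 0.25 in NoUVB libraries, with UVB-Saline 3 the highest. For 10 basal keratinocyte genes they were -0.31, -0.28 and -0.22 in UVB-hCOL3A1, -0.18, -0.02 and 0.11 in UVB-Saline and 0.06, -0.04 and -0.02 in NoUVB libraries. Leukocyte genes stood at 0.54, 0.45 and 1.01 in UVB-hCOL3A1, -0.50, 0.14 and 1.04 in UVB-Saline and -0.08, -0.11 and 0.19 in NoUVB libraries. In UVB-Saline over NoUVB, where 34 of the 35 mitotic genes had a positive log2 fold change, 6 of 10 basal keratinocyte genes, 6 of 9 suprabasal keratinocyte genes and 0 of 15 hair matrix genes did. In UVB-hCOL3A1 over UVB-Saline, where 32 of the 35 mitotic genes were negative, 10 of 10 basal keratinocyte genes, 9 of 9 suprabasal keratinocyte genes and 14 of 15 hair matrix genes were negative too, beside 9255 of all 17168 genes.

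In some other lists most genes had the same sign in a comparison, though none passed the adjusted threshold. All 7 sebocyte genes tested were positive in UVB-Saline over NoUVB (median 0.40), 4 of them at an unadjusted p under 0.05 (background 4.93%), and their means were 0.37, 0.65 and 0.63 in UVB-hCOL3A1, 0.44, 0.80 and 0.13 in UVB-Saline and -0.05, -0.23 and 0.28 in NoUVB libraries. UVB-Saline 2, the lowest of its group in mitotic transcripts, was the highest in sebocyte transcripts. All 6 adipocyte genes were negative in UVB-Saline over NoUVB (median -0.96) and positive in UVB-hCOL3A1 over UVB-Saline (median 0.99), with summed levels of 600.4 to 942 CPM in UVB-hCOL3A1, 360.0 to 479 CPM in UVB-Saline and 448 to 1036 CPM in NoUVB libraries. All 8 fibroblast genes were positive in UVB-hCOL3A1 over UVB-Saline (median 0.39), and in 6 the groups did not overlap (background 8.95%); their means were 0.12, 0.36 and 0.08 in UVB-hCOL3A1, -0.49, -0.19 and -0.25 in UVB-Saline and -0.19, 0.11 and 0.08 in NoUVB libraries. Skeletal muscle genes were positive in 7 of 8 in UVB-hCOL3A1 over UVB-Saline (median 1.17), and the 7 did not overlap (background 8.95%). Their means were 0.60, 1.17 and 1.03 in UVB-hCOL3A1, -1.53, 0.45 and 0.19 in UVB-Saline and 1.18, -0.55 and -0.62 in NoUVB libraries. NoUVB 1 was thus as high as the UVB-hCOL3A1 libraries, and 0 muscle genes did not overlap between UVB-hCOL3A1 and NoUVB (backgrounds 10.7% higher and 10.7% lower). For 6 melanocyte genes the median was -0.35 in UVB-Saline over NoUVB and -0.31 in UVB-hCOL3A1 over UVB-Saline. For 6 endothelium genes it was -0.28 and 0.27 in these comparisons. No gene of the cell type lists passed the adjusted threshold in edgeR, and the part of these cell types in the mitotic values was not tested.

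Summed over each list, hair matrix genes ranged over 2568 to 6296 CPM in UVB-hCOL3A1, 1263 to 9075 CPM in UVB-Saline and 6212 to 11801 CPM in NoUVB libraries. Tchh, a gene of the inner root sheath, made up 8157 of the 11801 CPM in NoUVB 1. Basal keratinocyte genes ranged over 3119 to 3717 CPM in UVB-hCOL3A1, 3156 to 5405 CPM in UVB-Saline and 3690.2 to 3888 CPM in NoUVB libraries. Stress keratins ranged over 497 to 990.2 CPM in UVB-hCOL3A1, 509 to 3783 CPM in UVB-Saline and 505 to 671 CPM in NoUVB libraries, and leukocyte genes over 780.3 to 1194 CPM in UVB-hCOL3A1, 366 to 1194 CPM in UVB-Saline and 561 to 758.5 CPM in NoUVB libraries. Of all the cell type markers used, the B cell gene Cd79a was at 0 in 3 libraries and the lipid droplet gene Plin5 in 1.

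Per length of the longest protein-coding GENCODE M21 transcript, Mki67 was the most abundant member in every group, with 30.6 ± 4.43 CPM per kb in UVB-hCOL3A1, 37.3 ± 10.2 in UVB-Saline and 31.8 ± 2.33 in NoUVB skin (SD, n = 3 each). Top2a followed with 11.1 ± 1.29 CPM per kb in UVB-hCOL3A1, 15.2 ± 3.79 in UVB-Saline and 9.81 ± 0.603 in NoUVB skin, and Prc1 with 7.34 ± 0.874 CPM per kb in UVB-hCOL3A1, 9.14 ± 1.62 in UVB-Saline and 6.16 ± 0.907 in NoUVB skin. In NoUVB skin the order continued with Ccna2 at 5.82 ± 0.445 and Kif23 at 5.49 ± 0.122 CPM per kb, and the ranges of Prc1, Ccna2 and Kif23 overlapped there. Bub1 was the lowest member in every group, at 1.04 ± 0.264 CPM per kb in UVB-hCOL3A1, 1.59 ± 0.106 in UVB-Saline and 0.950 ± 0.302 in NoUVB skin. Cdk1 lay next above it, at 1.35 ± 0.492 CPM per kb in UVB-hCOL3A1, 1.65 ± 0.365 in UVB-Saline and 1.16 ± 0.0403 in NoUVB skin, and the mean ± SD intervals of Cdk1 and Bub1 overlapped in each group.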

How the data were processed

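Total RNA was extracted from skin with TRIzol and sequenced as 150 bp read pairs, per the labels' protocols. The authors deposited 1 table of gene-level estimated counts for 9 libraries. The build GRCm39 and the tools RSEM 1.3.3, STAR 2.7.11b, Bowtie2 2.5.4, fastp 0.23.4 and DESeq2 1.44.0 are listed, per the submitters' processing notes; the role of each, the annotation and the strand setting were not given in the sources used here. Of the values, 11.1% to 14% per library were not whole, and 14 members had such values, so counts were rounded. The 525 rows without a symbol held 0.0384% of all counts.

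edgeR 4.0.16 in R 4.3.3 fitted group means over all 9 libraries (TMM scaling, filterByExpr, robust quasi-likelihood test, two-sided, Benjamini-Hochberg over 17168 genes, threshold 0.05, 6 residual degrees of freedom), and was tested on simulated data. Log2 CPM used a prior count of 2. Alternatives included DESeq2 1.42.0, limma voom 3.58.1, other filters and leaving out each library. Replicates differed beyond counting noise (chi-square per degree of freedom 8.18 to 250.0). This measure used library totals with Rn18s-rs5 left in, so it also counts differences in the share of that row. Its highest values, 47.4 to 250.0, were those of the NoUVB pairs, where that share was 7.71% to 55.3%. The lowest, 8.18, was that of UVB-hCOL3A1 1 and 2, with shares of 42.7% and 42.5%. Promoter sequences come from RefSeq (GRCm38.p6), and no coordinates of GRCm39 were used. The members and gene lists were chosen with earlier results of these data known. The 5 members with the smallest p in each comparison and 13 core mitotic genes are given per library.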

Additional observations from a re-analysis of the deposited data

How the results depend on the processing

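Members past the adjusted threshold numbered 0 in all 3 comparisons under each of 17 alternatives, with smallest adjusted p-values of 0.0760 to 0.757 (UVB-Saline over NoUVB), 0.113 to 0.669 (UVB-hCOL3A1 over UVB-Saline) and 0.0666 to 0.450 (UVB-hCOL3A1 over NoUVB). Their median log2 fold changes kept their sign, at 0.42 to 0.48, -0.28 to -0.26 and 0.18 to 0.21 under other settings and 0.31 to 0.64, -0.42 to -0.20 and 0.12 to 0.28 when 1 library was left out. Of 1054 values of named genes under these alternatives 8 changed sign, all when 1 library was left out: Plk1 ranged over -0.12 to 0.14 and Ttk over -0.058 to 0.25 in UVB-Saline over NoUVB, and Birc5 over -0.19 to 0.21, Nusap1 over -0.064 to 0.27 and Ube2c over -0.065 to 0.21 in UVB-hCOL3A1 over UVB-Saline.

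Counts over all genes moved more, and the cause was not tested. In UVB-Saline over NoUVB they were 73 with no filter on low counts, 100 with DESeq2 and 0 to 12 when 1 library was left out. In UVB-hCOL3A1 over UVB-Saline they were 106 with no filter, 173 with DESeq2 and 0 to 78 when 1 library was left out. In UVB-hCOL3A1 over NoUVB they were 178 with no filter, 269 with DESeq2, 1 with limma voom, 407 with only the 2 groups compared and 0 to 242 when 1 library was left out.

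No label ties the replicate numbers to a shared animal or day, and the numbers were not taken as pairs, since not every same-numbered correlation was over 0.1. Deviations of same-numbered libraries correlated at 0.018 to 0.410 in 9 pairs and those of differently numbered ones at -0.389 to 0.257 in 18, and 12 of 18 library and group combinations correlated best with their own number, a hint from the data and not the design. A replicate block gave 61, 74 and 118 genes past the threshold in the 3 comparisons, 0 members in each, and member medians of 0.46, -0.27 and 0.18. Depth limits the rarer members most, since the lowest had 19 counts in a library.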
